A study of Arabidopsis thaliana with 5 samples.

Results

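Joins between a nuclear chromosome and an organelle genome made up 146 of the 634 structural variant calls (23.0%) in the unfiltered lists of 5 Arabidopsis thaliana libraries. A join, typed as a translocation in the lists, is a place where single long reads were split between a pair of reference sequences. The members are all typed calls with 1 end on a nuclear chromosome (1 to 5) and the other on the mitochondrial or chloroplast genome, read from the caller's best positions. They have 292 ends, and 100 calls (68.5%) reached the mitochondrial genome and 46 the chloroplast genome. None of them is among the 291 calls of the authors' filtered lists.

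The series surveyed structural variants in mutant seedlings that came from irradiated seed. Seeds of ecotype Col-0 flew over Antarctica for 30 days at about 35 km (label ANT), or received beams that simulate cosmic radiation (label BNL). The beams were hydrogen at 250 MeV and 10.62 rad, helium at 250 MeV and 3.165 rad, oxygen at 350 MeV and 1.08 rad, and titanium at 300 MeV and 0.735 rad. Genomic DNA was sheared to about 10 kb and sequenced on the PacBio Sequel.

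Antarctic mutants 1 and 2 were single M0 plants, 44 and 45 days old, taken whole after freezing with 10 mg of tissue each. Simulated-radiation mutants 4 and 5 were single M1 plants of 45 days, moved to soil at 14 days, from which a fresh leaf was taken with 10 and 20 mg of tissue. The Antarctic pool combined 6 M0 plants, taken whole after freezing, with 15 mg of tissue and ages of 21 days, or 17 days for 1 of them. All were Col-0 plants grown from irradiated seed under continuous light. Exposure, generation, material and soil growth cannot be told apart, and no unirradiated library was analysed here. The lists give no sequencing depth, and the evidence for a call is its number of split reads, at least 5 in every call. An organelle call missing from a library was therefore not detected at an unknown depth.

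Plant mitochondria and chloroplasts keep genomes of their own, and copies of organelle DNA are found in nuclear chromosomes of many species. In the Columbia ecotype a large block of mitochondrial DNA lies in the pericentromere of chromosome 2. Leaf cells hold many copies of the organelle genomes for each nuclear genome. The chloroplast genome carries a large inverted repeat, so each sequence in it occurs in a pair of copies of opposite direction, and plant mitochondrial genomes recombine at repeats.

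Joins were counted first by library. Antarctic mutant 1 had 22 mitochondrial joins and mutant 2 had 24, simulated-radiation mutant 4 had 24 and mutant 5 had 16, and the pool had 14. For chloroplast joins the counts were 11 and 12 in the Antarctic plants, 13 and 5 in the plants of the simulated exposure, and 5 for the pool. Both kinds were fewest in simulated-radiation mutant 5 and the pool, and the highest count of each was in simulated-radiation mutant 4 (tied with Antarctic mutant 2 for mitochondrial joins), so the groups overlapped. The share of organelle joins among a library's unfiltered calls was 29.5%, 38.3%, 26.2%, 20.0% and 10.4% in the same order of libraries. The pool, with 182 unfiltered calls the longest list, had the lowest share.

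The mean over single plants was 23.0 ± 1.41 mitochondrial joins (SD, n = 2) in Antarctic and 20.0 ± 5.66 (SD, n = 2) in simulated-radiation plants, a difference of -3 (exact permutation of libraries, two-sided, p = 1). For chloroplast joins the means were 11.5 ± 0.707 (SD, n = 2) and 9.0 ± 5.66 (SD, n = 2), a difference of -2.5 with p = 1 in the same exact test. Both differences were smaller than the spread between the simulated-radiation plants, and both became positive, 1 and 1.5, when mutant 5 was left out. No p below 0.333 is possible with 2 libraries a group.

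**Figure D1:**
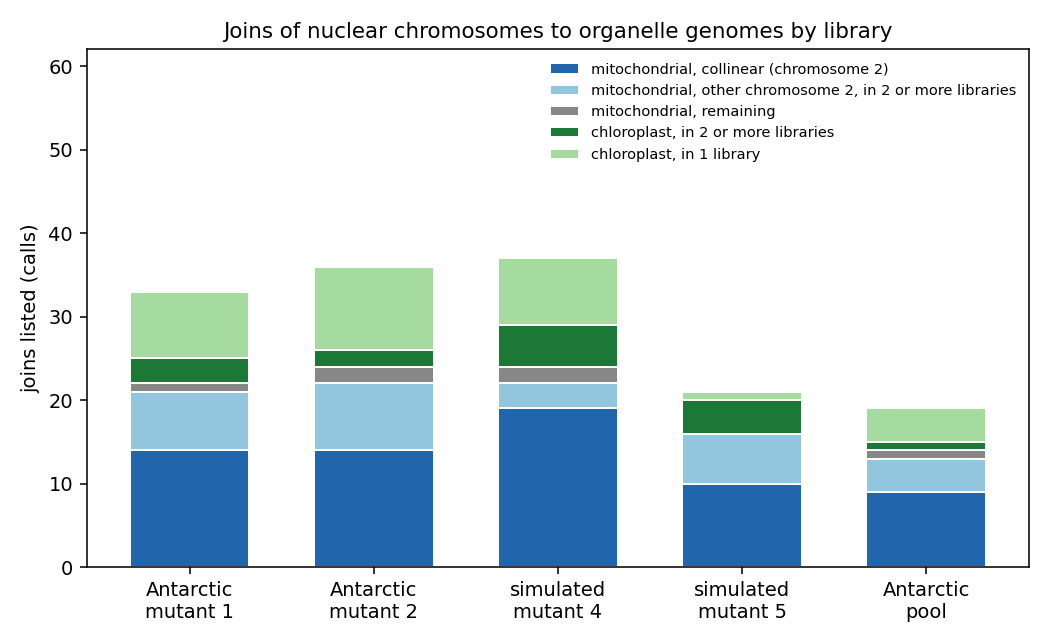
Number of joins (calls) between nuclear chromosomes and organelle genomes in each of the 5 libraries, stacked by organelle and class. The bars reach 33, 36, 37, 21 and 19 calls, and collinear mitochondrial joins on chromosome 2 are the largest class in each library.

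Mitochondrial joins met the nuclear genome almost in a single place. The nuclear end of 96 of 100 calls (96.0%, exact Clopper-Pearson 95% interval 90.1 to 98.9%) lay on chromosome 2, and all 96 lay between positions 3244065 and 3509763 (TAIR10). That span of 265.7 kb is 1.35% of the chromosome up to its last annotated gene. It holds 92 protein-coding genes, 17 pseudogenes, 27 transcribed pseudogenes and 23 tRNA genes in the RefSeq gene table. Gene bodies of protein-coding genes cover 41.6% of it, and 48 of the 96 ends (50.0%, interval 39.6 to 60.4%) lay in one.

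Within the span, most joins ran along straight lines when the mitochondrial end was set against the nuclear end. On an inverted line the mitochondrial position falls by as much as the nuclear position rises, and on a direct line both rise together. Joins were put on a line when at least 3 distinct joins followed each other at steps of 1 to 50 kb and kept their sum or difference of positions within 500 bp. There were 4 such lines with 66 of the 100 mitochondrial calls, and no call lay more than 228.5 bp from the median of its line. The lines together covered 202.2 kb of chromosome 2 and 202.5 kb of the mitochondrial genome. This selection used positions only, and the lines were found in these calls, so they are a description with no test.

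Line 1 was inverted and held 29 calls in 23 distinct joins, from chromosome 2 positions 3247792 to 3313250 and mitochondrial positions 217693 to 283242. Line 2 was inverted and held 22 calls in 16 distinct joins, from 3323263 to 3368145 and from 298046 to 343295. These neighbouring lines have the same direction on chromosome 2. Line 3 was direct with 5 calls, from 3377429 to 3433498 and from 121008 to 177058. Line 4 was direct with 10 calls, from 3461027 to 3496838 and from 70643 to 106275. The direction thus changed once along the chromosome, between lines 2 and 3.

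The strand marks that the caller gives the ends of a call had no part in choosing the lines. They split exactly by direction. All 51 calls of the inverted lines had both ends marked with the same strand, and all 15 calls of the direct lines had opposite marks. Strands here and below are these marks as listed. They are not the direction in which the reads align, which was not examined. None of the 66 was marked precise by the caller.

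**Figure D2:**
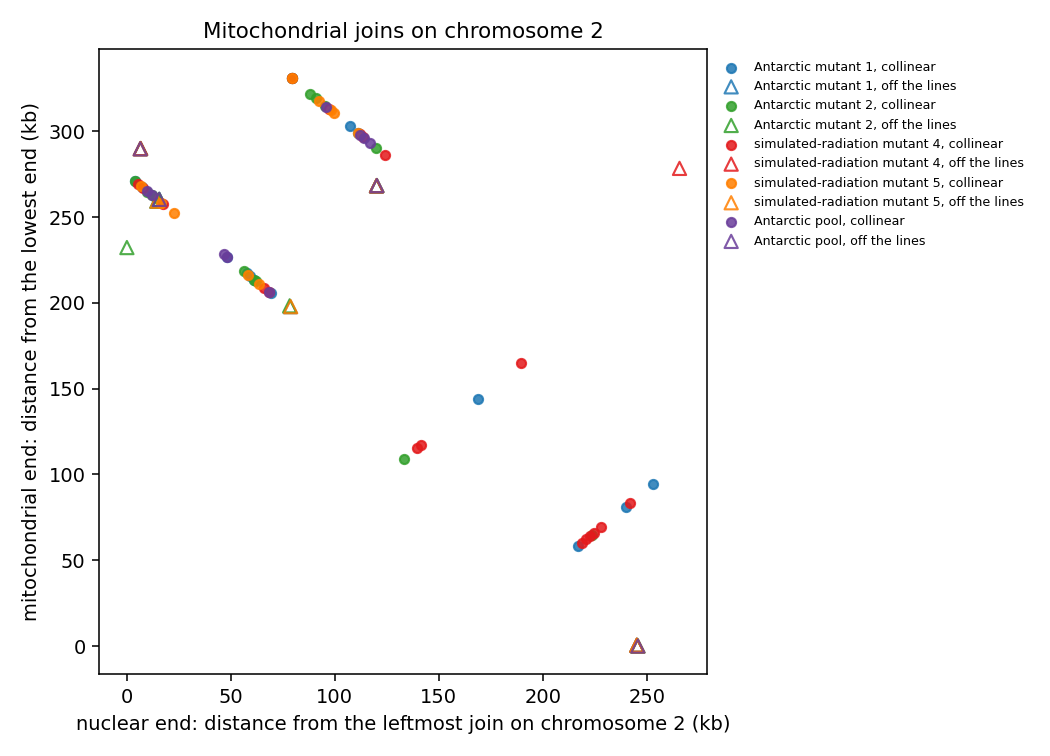
Mitochondrial end against nuclear end of the 96 mitochondrial joins on chromosome 2, both as distance in kb from the lowest end, coloured by library, with filled circles for collinear joins and open triangles for the others. Lines 1 and 2 slope down on the left and lines 3 and 4 slope up on the right, and the joins off the lines pile up at few places.

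The inverted lines were found in every library, with 10, 12, 10, 10 and 9 calls in mutants 1, 2, 4 and 5 and the pool. The direct lines had 4, 2 and 9 calls in mutants 1, 2 and 4 and none in mutant 5 and the pool. The 2 libraries without direct-line calls are those with the fewest organelle joins in all, and a part of depth in this was not tested. Simulated-radiation mutant 4 alone gave 9 of the 15 direct-line calls, and when it was left out 3 lines with 45 calls were found, 41 of them on inverted lines and 4 on a direct line. Leaving out any of the other libraries kept 4 lines, with 52 to 57 calls.

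Along the lines, libraries seldom shared a join at the matching window used. Calls were taken as the same join when both ends lay within 500 bp, and 10 of the 54 distinct line joins (18.5%) were found in more than 1 library. All 10 lay on lines 1 and 2. The most widely shared was at the start of line 2, positions 3323263 to 3323437 joined to mitochondrial 342986 to 343295, outside any annotated gene. It was in the 4 single plants, with 7 split reads in both mutants 1 and 2, 15 in mutant 4 and 9 in mutant 5. Over all mitochondrial joins the shared fraction changed with the window, from 15.2% at 100 bp to 47.2% at 2000 bp.

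The other 9 shared line joins were each in 2 libraries. The join at 3312370 to 3312486, in AT2G07687, had 11 reads in mutant 4 and 7 in the pool. The join at 3292002 to 3292116 fell in AT2G07681 (ABCI4) with 8 reads in mutant 1 and 5 in the pool. Those at 3355160 to 3355210 and 3356072 to 3356306 both fell in the pseudogene AT2G07697. The nuclear end lay in an annotated gene of some kind in 50 of 66 line calls (75.8%), beside the 69.6% of the 4 lines' sequence that such genes cover, and 40 different genes were met.

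A second class of joins in the same span lay off the lines and came back at the same few places. The class was defined as off-line joins found in more than 1 library, so sharing is built into it. There were 6 such joins with 28 calls, each in 3 or more libraries, and 11 of the 28 calls were precise. Their split reads ran from 5 to 26 with a median of 9.5, against 5 to 15 with a median of 6 for line calls. Within each library the median was also higher off the lines, at 10 against 6 in mutant 1, 8 against 6.5 in mutant 2, 14 against 6 in mutant 4, 9 against 6 in mutant 5 and 9.5 against 6 in the pool. These medians do not compare like with like, since only 22 of the 66 line calls belonged to shared joins. The classes were made from the same calls, and no test was run on them.

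The shared join with the most reads over its calls connected chromosome 2 position 3489258 with mitochondrial position 12545, in AT2G07806, and position 3489714 with 12089, outside genes. These pairs of ends lie close enough to count as 1 join under the 500 bp window. At the first pair of ends mutants 1 and 5 had 11 reads each, mutant 2 had 26 and mutant 4 had 23. At the second mutants 1, 2 and 5 had 21, 25 and 6 reads and the pool had 14. Every library therefore held this join, 3 of them at both pairs of ends. Of its 8 calls 6 were precise, and positions varied by at most a few bases between libraries. It lay inside the nuclear range of line 4, which would place the mitochondrial end between 98668 and 99124.

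A further pair of joins was found in all 5 libraries and crossed over between lines 1 and 2. Position 3250464 to 3250670, in AT2G07777, was joined to mitochondrial 301926 to 302130, with 10 and 11 reads in mutants 1 and 2, 7 and 12 in mutants 4 and 5, and 11 in the pool. Position 3364063 to 3364269, at AT2G07698, was joined to mitochondrial 280337 to 280544, with 20, 14 and 15 reads in mutants 1, 4 and 5, 8 in the pool and 2 calls of 9 and 7 reads in mutant 2. By line 1 the first nuclear place belongs with mitochondrial 280306 to 280512. By line 2 the second belongs with 302142 to 302348. Each nuclear place was thus joined to the mitochondrial neighbourhood that the lines assign to the other, and all 11 calls were on opposite strands, the reverse of the lines they lie in.

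The same exchange appeared on a smaller scale inside line 1. Position 3258526, in AT2G07672, was joined to mitochondrial 271373 to 271375 with 7, 6 and 5 reads in mutants 1, 2 and 5, where the line gives 272450. Position 3259634 was joined to 272480 to 272482 with 8, 7 and 8 reads in mutants 1 and 2 and the pool, where the line gives 271342. Here the strands were the same, as in the line itself.

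The sixth of these joins lay between the ends of lines 1 and 2. It connected 3322322 to 3322806, outside genes, with mitochondrial 209924 to 210410, and had 5, 7 and 7 reads in mutants 1, 2 and 5. Only 2 calls in the span were neither on a line nor shared, at 3244065 in mutant 2 and at 3509763 in mutant 4, with 6 reads each. They are also its outermost calls.

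**Figure D3:**
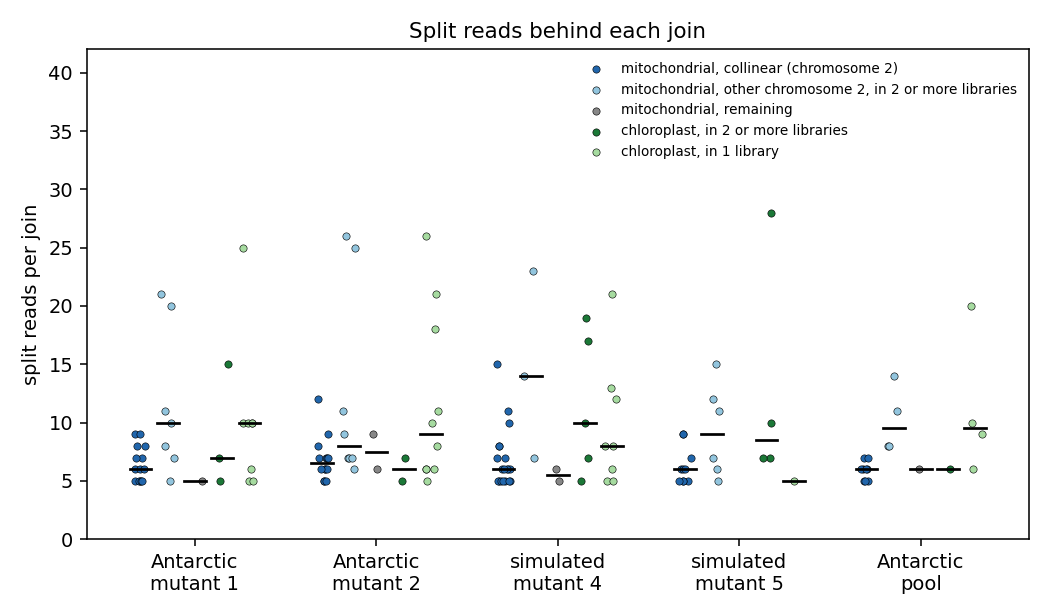
Split reads per join (linear axis) in each library, by class, with 1 point per call and a black bar at the median of the class. Line calls stay at or below 15 reads, while joins off the lines that are shared by libraries reach 26 and chloroplast joins reach 28.

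The mitochondrial joins off chromosome 2 numbered 4, each from a different library and with no partner in any other. Position 143158 of chromosome 1 in AT1G01360 (RCAR1, an abscisic acid receptor) was joined to mitochondrial 365157 with 5 reads in mutant 1. Position 8248868 of chromosome 1 in AT1G23230 was joined to 199654 with 9 reads in mutant 2. Position 9212866 of chromosome 3 in AT3G25400 was joined to 364703 with 6 reads in the pool, and position 18481514 of chromosome 3 in AT3G49820 to 77345 with 5 reads in mutant 4. All 4 lay in protein-coding genes, 3 were precise, and none had another call of its library within 10 kb. With 4 calls, the exact interval of the gene share runs from 39.8 to 100%, and gene bodies cover 54.1% of the 5 chromosomes.

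Chloroplast joins were spread over all 5 chromosomes, with 7, 14, 15, 4 and 6 calls on chromosomes 1 to 5. Counted as distinct joins, there were 7, 8, 11, 4 and 6. Nuclear ends lay in protein-coding genes in 25 of 46 calls (54.3%, interval 39.0 to 69.1%), beside the 54.1% of sequence that gene bodies cover. Of the 46 calls, 5 lay inside the chromosome 2 span of the mitochondrial joins, and 4 more lay 55.4 kb or a little more to its left. Strands were mixed, with 21 calls on the same strand (45.7%) against 70 of 100 mitochondrial calls.

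Sharing was then counted over distinct joins. Among 36 distinct chloroplast joins 5 were in more than 1 library (13.9%, exact interval 4.67 to 29.5%), against 16 of 66 mitochondrial joins (24.2%, 14.5 to 36.4%). The intervals overlap and the difference was not tested. Without the pool the shares were 15.6% for chloroplast and 16.1% for mitochondrial joins, and without Antarctic mutant 2 they were 19.2% and 19.6%. They stayed apart without Antarctic mutant 1 (17.9% and 21.4%), simulated-radiation mutant 4 (14.3% and 29.2%) or simulated-radiation mutant 5 (11.4% and 25.9%). No chloroplast join was in all 5 libraries, whereas 3 mitochondrial joins were. Of the shared joins, 9 mitochondrial and 4 chloroplast joins were in single plants or pools of both exposures, and each of the 21 shared joins kept the same strand combination in all its calls.

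**Figure D4:**
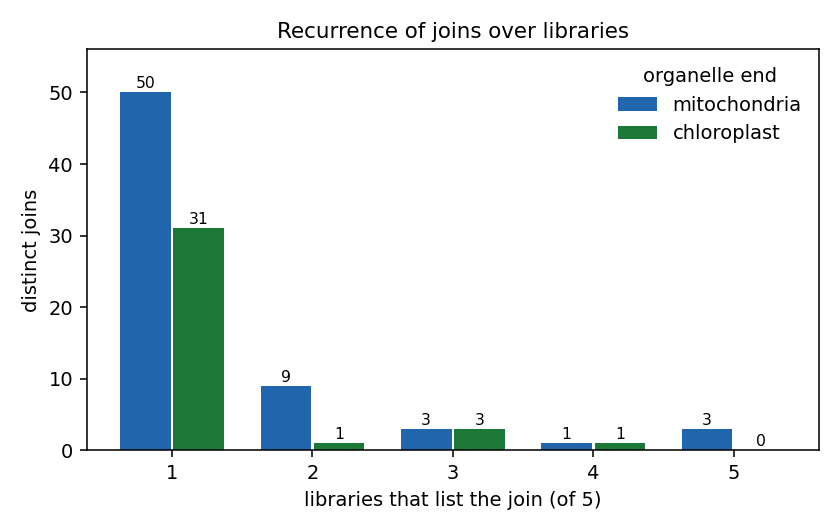
Number of distinct joins by the number of libraries that list them, for mitochondrial and chloroplast joins. Joins of 1 library are the largest group for both, with 50 mitochondrial and 31 chloroplast joins, and 3 mitochondrial joins are in all 5 libraries.

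Of the 5 shared chloroplast joins, 2 lay on chromosome 3. Positions 7104047 to 7104242, in AT3G20362, were joined to chloroplast 30534 to 30655 at trnE, a glutamate transfer RNA gene, with 15, 19 and 28 reads in mutants 1, 4 and 5. The 28 reads are the highest of any single organelle call. Positions 13538632 to 13538956, in the pseudogenes AT3G33002 and AT3G33004, were joined to chloroplast 15470 to 15910 with 5 reads in mutant 4, 7 in mutant 5 and 6 in the pool. The chloroplast end lay in rps2, which encodes a ribosomal protein, or beside rpoC2, which encodes a subunit of the plastid RNA polymerase. With 2 more calls of mutant 4, of 12 and 13 reads, this place formed a short direct line of 5 calls over 1.89 kb of chromosome 3, all on opposite strands like the direct mitochondrial lines.

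The other 3 shared chloroplast joins were on chromosome 2. Positions 3188359 to 3188663, at AT2G07565 and AT2G07600, were joined to chloroplast 110393 to 110682, where ycf1, a gene of the chloroplast protein import machinery, meets ndhF, a gene of the NADH dehydrogenase-like complex. This join had 7, 5, 7 and 7 reads in mutants 1, 2, 4 and 5. It was the most widely shared chloroplast join when the copies of the inverted repeat were kept apart.

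The remaining pair was listed at both copies of the chloroplast inverted repeat. Positions 3495875 to 3495962, in AT2G07739, were joined to chloroplast 128896 to 129073 in ycf1 with 5, 7 and 17 reads in mutants 1, 2 and 4. Positions 3496123 to 3496134 in the same gene were joined to 109386 to 109445, at the partial ycf1 copy, with 10 reads in mutant 4 and 10 in mutant 5. Of the 11 gene symbols that occur more than once in the chloroplast table, 8 have outer ends that add up to 238649. Calls were matched as mirror positions in the repeat copies by a sum of 238648. The chloroplast ends of these 2 joins fell 130 to 366 bp short of that sum, and their strands were reversed. In mutant 4, position 9760540 in AT2G22930 was listed with both 85972 (6 reads) and 152676 (5 reads), in the 2 copies of the ribosomal protein gene rpl23. Their sum is 238648, 1 bp less than that of the gene ends. Whether such pairs are separate junctions or 1 junction placed at either copy was not tested. When repeat copies were matched, 34 distinct chloroplast joins remained, of which 4 were shared (11.8%). The pair in AT2G07739 then counted as 1 join, found in mutants 1, 2, 4 and 5.

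Private chloroplast joins, each in 1 library only, numbered 31, with 8, 10, 8, 1 and 4 in mutants 1, 2, 4 and 5 and the pool. Their split reads ran from 5 to 26 with a median of 9. The caller marked 15 of them precise, with a median of 10 reads against 6 for the imprecise ones. No shared chloroplast join had a precise call, while 11 of the 14 precise mitochondrial calls belonged to shared joins. Of 21 chloroplast calls with 10 or more reads, 15 were in private joins, near the share of all chloroplast calls (31 of 46). Among mitochondrial calls, 16 of 18 with 10 or more reads were in shared joins, against 50 of all 100.

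The private joins with the most reads in each library were at different nuclear places. In Antarctic mutant 2, position 30353907 of chromosome 1, outside genes, was joined to chloroplast 29235 with 26 reads. In the same plant, 13327894 of chromosome 4 in AT4G26350 was joined to 123964 in ycf1 with 21 reads, and 2666612 of chromosome 3 in AT3G08780 to 64407 near psbE, a photosystem II gene, with 18 reads. In Antarctic mutant 1, 21522179 of chromosome 5 in AT5G53080 was joined to 12582 in atpF, an ATP synthase gene, with 25 reads. In simulated-radiation mutant 4, 16480094 of chromosome 1 in AT1G43690 was joined to 28822 near psbM, a photosystem II gene, with 21 reads. In the pool, 18968472 of chromosome 2 in AT2G46180 (GC4, a golgin candidate) was joined to 50229 in ndhC with 20 reads. The only private join of mutant 5 had 5 reads, at 18835900 of chromosome 1 in AT1G50830. The top private joins of mutants 1, 2 and 4 and the pool had 20 or more reads, and all those named here except that of mutant 5 were precise.

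Genes with a known role, picked out after the calls had been seen, were also met by precise private joins with fewer reads. AT5G67360 (ARA12, a subtilisin-like protease) was joined to atpF with 11 reads in mutant 2, and AT5G44560 (VPS2.2, related to the ESCRT-III membrane-sorting complex) to psaA, a photosystem I gene, with 8 reads in mutant 4. AT3G54990 (SMZ, a repressor of flowering) was joined to atpA with 5 reads in mutant 2.

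Some chloroplast positions or short stretches were joined to several nuclear places. The stretches at psbM and atpF span 535 and 1081 bp, wider than the 500 bp matching window, so they are not single ends. Whether such groups exceed a random placement was not tested. Chloroplast positions 28700 to 29235, at or near psbM, were joined to 4 places on chromosomes 1, 3 and 4, with 10 reads in mutant 1, 26 and 10 in mutant 2, and 21 in mutant 4. Positions 11501 to 12582, at or near atpF, were joined to 4 places on chromosomes 3, 4 and 5, 1 in each library other than mutant 5, with 25, 11, 8 and 10 reads in mutants 1, 2 and 4 and the pool. Position 55213 in rbcL, the gene of the large Rubisco subunit, was joined in mutant 1 to position 6228 of chromosome 2 and position 14200199 of chromosome 3 with 5 reads each. Each of these nuclear positions had 16 other calls of mutant 1 within 10 kb, all typed as translocations to a nuclear chromosome. Of the 18 joins between chromosomes 2 and 3 in mutant 1, 1 had both ends within 500 bp of these positions. For 3 of the 18, the difference between the end positions was within 10 bp of that between these positions. Whether the rbcL calls are separate junctions was not tested.

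Chloroplast ends lay in a gene in 36 of 46 calls (78.3%), beside the 69.9% of the chloroplast sequence that genes cover up to its last listed position. Grouped by function, ends were most numerous in the mixed group of ycf, clpP, accD, matK, ccsA and cemA genes, which received 8 ends, or 17.4%, and covers 19.0% of the sequence. The NADH dehydrogenase-like complex and ribosomal protein genes received 6 ends each (13%) and cover 9.33% and 8.29%, and ATP synthase genes received 5 (10.9%) and cover 3.68%. Transfer RNA genes received 2 (4.35%) and cover 6.53%, and RNA polymerase genes received 1 (2.17%) and cover 7.23%. The end at 110400 in mutant 2 lay in both ycf1 and ndhF and was counted in both groups. Repeat calls of a join were counted too. As distinct joins, the mixed, NADH dehydrogenase-like, ribosomal protein, ATP synthase and transfer RNA groups had 5, 4, 5, 5 and 1. Of 12 groups, 5 received more than their share of sequence and 7 received less, and with so few ends in each these are counts only.

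Private chloroplast joins seldom had company, as 25 of the 31 had no other call of their library within 10 kb. The exceptions were the 2 calls of mutant 4 at 9760540, the 2 outer calls of the chromosome 3 line in mutant 4, and the 2 rbcL joins of mutant 1.

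Split reads were compared within each library, since calls of a library share its depth. The median of mitochondrial joins was 7, 7, 6, 6 and 6 reads in mutants 1, 2, 4 and 5 and the pool, and that of chloroplast joins was 10, 7.5, 8, 7 and 9. Mitochondrial joins had the lower median in 5 of 5 libraries, by a mean difference of -1.9 ± 1.14 reads (SD, n = 5, exact two-sided sign-flip permutation p = 0.0625). Without joins on chromosome 2, 4 libraries gave a value, with a mean of -3.12 (exact p = 0.125). Each of these 4 libraries had only 1 mitochondrial call left, so its mitochondrial median is the count of a single call. The 141 joins between nuclear chromosomes had medians of 12.5, 9, 9.5, 10 and 11 reads in the same order. Organelle joins had the lower median in 5 of 5 libraries, by -3.6 ± 1.56 reads (SD, n = 5, exact two-sided sign-flip permutation p = 0.0625). The size of this difference depended on the setting, at -7.70 with means in place of medians (exact p = 0.0625) and -2.3 without organelle joins on chromosome 2 (exact p = 0.125). Without the joins between chromosomes 2 and 3 it was -2.6 (exact p = 0.25), with medians equal in mutants 2 and 5 and lower for organelle joins in the other libraries. Neither difference over all joins passed 0.05, and 0.0625 is the smallest p that 5 libraries can give.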

How the data were processed

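Long reads were aligned with NGMLR and structural variants called with Sniffles, per the series' design text, on build TAIR10, per the submitters' processing notes. For versions, settings and the rule of the authors' filter, the sources used here give nothing. The authors deposited for each library an unfiltered and a filtered list with positions, strands, type, a precision mark and a raw count of split reads, which was not normalized. Positions are printed as listed, and whether they start at 0 or 1 is not stated. In 41 rows, 10 of them members, the first position columns held placeholders, so the caller's best positions were used.

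Calls were matched by single linkage when organelle, chromosome and both ends agreed within 500 bp. Genes came from a RefSeq table of assembly TAIR10.1. Overlaps assume that nuclear and chloroplast positions are the same as in TAIR10, and mitochondrial genes were not assigned. Named genes are those of joins in 2 or more libraries (up to 15 per organelle) and of the 3 joins with most reads per library and organelle. Genes of private joins with fewer reads and of joins off chromosome 2 were named in addition after their values were seen. Members and lists were chosen with earlier results of these data known, and the lines, the matching of repeat copies and the omission of line calls were added after seeing the data.

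Groups were compared by exact permutation of libraries, and split reads by exact sign flips of within-library differences. The p-values of the group comparisons measure only the spread between these plants. Those of the sign flips measure only how alike the differences were over libraries. Clopper-Pearson intervals cover counting error only, while calls of 1 join are not independent. Alternatives were other matching windows, read minimums, merged repeat calls and leaving out libraries. The scripts used Python 3.11.15, numpy 2.4.6, pandas 2.3.3, scipy 1.17.1 and matplotlib 3.10.9, and were tested on simulated data.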

Additional observations from a re-analysis of the deposited data

How the results depend on the processing

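Of 129 alternative values, 3 changed sign and 6 shares moved beyond their interval. Leaving out each single plant in turn gave differences (simulated minus Antarctic) of -7 to 1 mitochondrial joins, -6.5 to 1.5 chloroplast joins and -13.5 to 2.5 organelle joins in all. All 3 turned positive, to 1, 1.5 and 2.5, without simulated-radiation mutant 5 (exact permutation p = 1, 0.667 and 0.667). Under the other alternatives the differences ran from -3.5 to 0, from -3 to -0.333 and from -4.5 to -0.333. The mitochondrial difference was 0 for calls of at least 10 reads and with the pool as another Antarctic library. The share of shared mitochondrial joins rose to 47.2% with a matching window of 2000 bp, 50.0% with 10000 bp and 42.9% for calls of at least 10 reads. It was 15.2% with a window of 100 bp. With at least 10 reads, 100% of mitochondrial joins lay on chromosome 2 and 66.7% of all organelle joins lay in protein-coding genes. With at least 8 reads, 16% of chloroplast joins lay on chromosome 2. The cause of the shifts under read minimums was not tested. The filtered lists gave no value, since they hold no organelle join. No paired analysis was possible because the groups share no replicate number. Without depth, counts per library cannot be turned into rates, and the minimum of 5 reads hides weaker joins.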
